A study of Mus musculus with 30 samples.

Results

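The expression of 34 neural genes, out of 18194 genes read on the arrays, was followed in mouse embryonic stem (ES) cells as they left the undifferentiated state. The genes were chosen by name, with no measured value in the rule, though with earlier results of these data known. Each was read from its brightest probe set, the one with the highest mean over all arrays. All 34 had a probe set. They comprise 13 genes of neural progenitors (Sox1, Sox11, Sox21, Nes, Zic1, Hes5, Hes6, Dll1, Olig2, Pou3f2, Pou3f3, Fabp7 and Ptn), 3 proneural transcription factors (Neurod1, Neurog1 and Neurog2) and 18 neuronal genes (Ncam1, Tubb3, Map2, Mapt, Dcx, Dclk1, Gap43, Stmn2, Stmn3, Elavl3, Elavl4, Nefl, Nefm, Syt1, Snap25, Syp, Gad1 and Ntrk2). Both genotypes carried targeted alleles of Jmj (Jumonji), the gene now called Jarid2, whose product binds Polycomb repressive complex 2. Jmj-Fl/Fl cells, which the labels call wild-type, have floxed alleles, and Jmj-null cells are labelled as -/- mutants. Leukaemia inhibitory factor (LIF), a cytokine that holds mouse ES cells undifferentiated, was withdrawn, and RNA was taken at day 0 (undifferentiated) and at days 2, 4, 6 and 8. The labels name no other treatment, and the sources used here do not say whether a genotype is 1 clone or several. Fl/Fl had 2 arrays at each of the 5 days, and null had 3, 5, 5, 5 and 2 arrays at days 0, 2, 4, 6 and 8, which makes 30 arrays. The labels call them biological replicates without saying that they came from separate cultures, so p-values reflect the spread among these arrays only, and that spread may be technical.

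Neural progenitors are dividing cells of the early nervous system. They are marked by Sox family transcription factors, the intermediate filament nestin (Nes) and the Notch pathway, in which the ligand Dll1 on one cell keeps its neighbour a progenitor through Hes5. Proneural factors such as Neurog1, Neurog2 and Neurod1 push a cell out of the cycle and into the neuronal course, after which genes of the neuronal cytoskeleton, RNA-binding proteins and synaptic proteins come on. Outside the nervous system many neuronal genes are held down by the repressor REST, and LIF withdrawal by itself gives mixed cell types rather than a neural culture.

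Values are probe set intensities on a linear scale, without unit. Array means lay between 331.8 and 363.6. Jarid2 itself, read by the brightest of 3 probe sets, ran from 319 to 3340 (median 709.5) in Fl/Fl and from 383 to 4082 (median 1350) in null, with an averaged difference of 0.57 (log2, adjusted p = 0.001) towards null. No source used here places these probe sets inside or outside the deletion, so the arrays do not check the genotype, and "null" stands for arrays labelled null throughout. The null arrays also differed among themselves. In 11 of 20 the Y chromosome gene Eif2s3y read 594 to 981 and Tmem87a 172 to 348, while Tmem87a was 9 to 12 on the other 9 null arrays and on the 10 Fl/Fl arrays. Eif2s3y was 130 to 234 in Fl/Fl, 217 to 365 on 5 of the other null arrays and 11 to 16 on the remaining 4, which are day 2 replicate 1 and replicate 2 of days 4, 6 and 8. The 11 are called high-Eif2s3y arrays here and the 4 low-Eif2s3y arrays. The high ones are replicates 2 and 3 at day 0 and replicates 3, 4 and 5 at days 2, 4 and 6, with none at day 8. These divisions were made after the values were seen, and results that depend on them are given with and without the arrays. Leaving out the high ones leaves 1 null array at day 0, and leaving out the low ones leaves 1 at day 8, and a lone array is then assumed to vary like the other groups. Summed over 13 pluripotency genes, day 0 read 63999 to 69374 in Fl/Fl and 52797 to 68233 in null, and day 6 read 4506 to 4970 and 7626 to 12484. At day 8 the order was the other way, with 4938 to 7678 in Fl/Fl and 3242 to 3541 in null. Such a sum weighs bright genes most, for example Dppa5a, which read up to 34538. In bulk RNA, fewer cells of a type and less RNA per cell cannot be told apart.

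Many of the genes gave low readings on all arrays of both genotypes, while Nes, Olig2, Neurod1, Ncam1, Gap43 and Nefl moved over a wide range. The floor was set at 12, the 95th percentile of 72 odorant, pheromone and trace amine receptor genes, which have no known part in ES cells (median 5). On no array did Pou3f3, Neurog2, Dcx, Elavl3 or Ntrk2 exceed 12, which is 5 of 34 against 31.5% of all genes. On every array 15 of 34 exceeded it, against 50.4% of all genes. A reading just above 12 is no sure sign of expression, because flat readings of single probe sets also lie there. Dclk1, a doublecortin-like kinase, read 12 to 16 on all arrays, Map2, a dendritic microtubule protein, 11 to 16, Snap25, a part of the synaptic release machinery, 11 to 17, and Gad1, which makes the transmitter GABA, 10 to 14. Dimmer probe sets of a gene can differ from this. One of Dclk1 averaged 21.5 in Fl/Fl at day 4 and 7 to 8.5 in the other groups. One of Map2 averaged 14 in Fl/Fl at day 4 and 5 to 7 elsewhere. At a stricter limit of 100, close to the 99th percentile of the receptor genes (101.4), 20 of 34 members stayed below on every array, namely 7 of 13 progenitor, 2 of 3 proneural and 11 of 18 neuronal genes. The share among all genes was 54.4%. Stmn2 and Nefl were above 100 on every array.

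**Figure D1:**
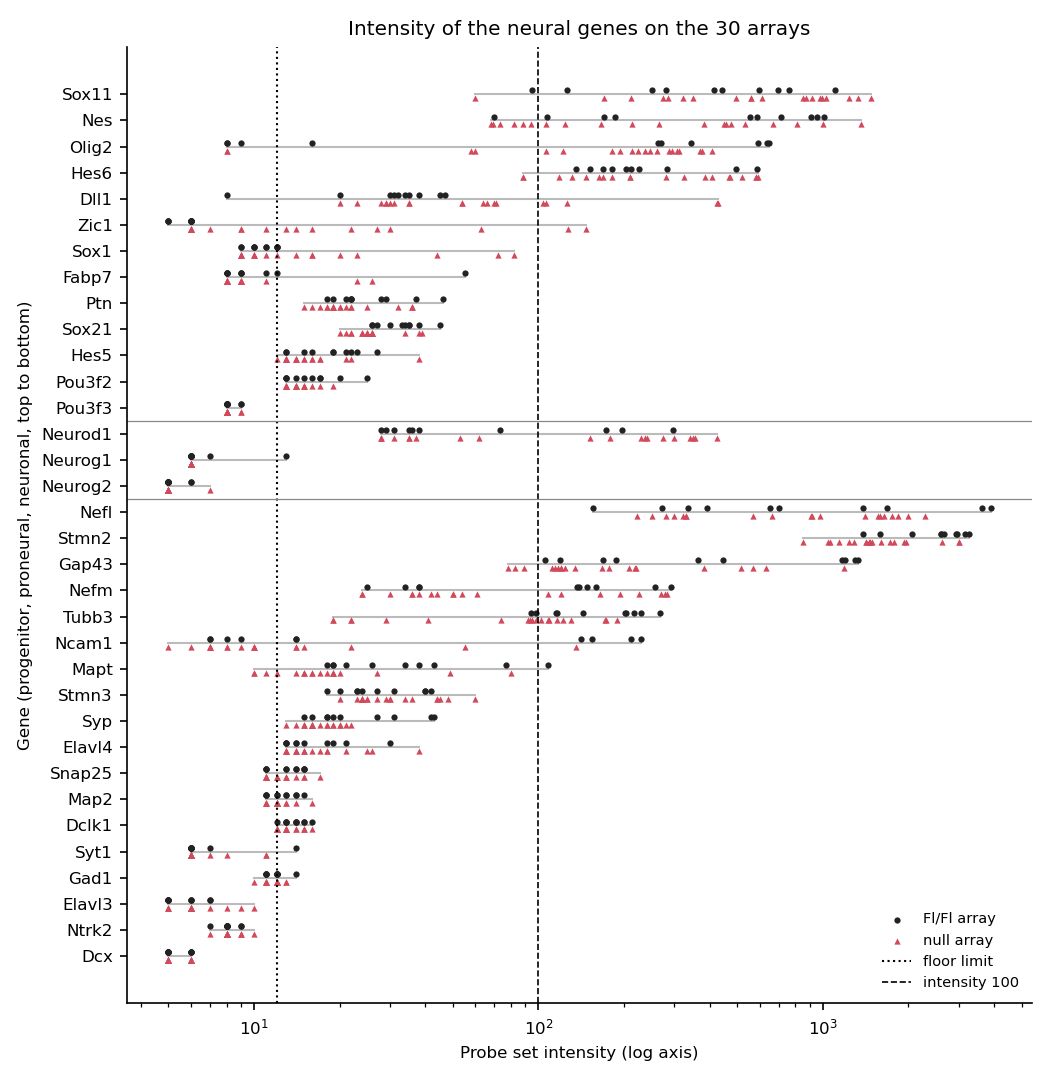
Intensity of each gene on each of the 30 arrays (log axis), Fl/Fl as black circles and null as red triangles, with the grey line from the lowest to the highest array. The dotted line is the floor limit of 12 and the dashed line an intensity of 100, which 20 of the 34 genes reached on no array.

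A gene was said to leave the floor when at least 1 of its day 0 arrays was at or below the limit and every array of some later day was above it. At the limit of 12 this held in Fl/Fl for Ncam1 and for Map2, whose brightest probe set barely moved. In null it held for Ncam1 and Sox1, which read 12, 16 and 11 there at day 0. Without the high-Eif2s3y arrays Sox1, Zic1 and Ncam1 left the floor in null. If 1 array above the limit is enough, the genes were Fabp7, Ncam1 and Syt1 in Fl/Fl and Zic1, Fabp7 and Ncam1 in null. At 100 it held in Fl/Fl for Sox11, Nes, Neurod1, Ncam1 and Nefm and in null for Sox11, Nes, Gap43 and Nefm. For Sox11 in Fl/Fl this rests on a day 0 reading of 95 in the brightest probe set. Its other probe sets read 129 to 620 on those day 0 arrays, so none of them left. Neurod1 is named through a day 0 reading of 73 beside 297, and it read 38 and 36 by day 4. In null, Sox11 is named through 60 on day 0 replicate 1, beside 561 and 493. Gap43 in null is named through 78 on the same array, beside 167 and 124. Ncam1 in Fl/Fl is the member that both limits name, and at a limit of 50 Ncam1 and Nefm left in each genotype. The count without 1 array ran from 1 to 3 in Fl/Fl, where it was 1 without Fl/Fl day 0 replicate 2, and from 2 to 3 in null. At days 2, 4 and 6 the rule needs 5 arrays above the limit in null but 2 in Fl/Fl. At day 0 it needs 1 low array among 3 in null but among 2 in Fl/Fl. The lists of the genotypes are therefore not strictly comparable. The share of all genes that met this rule was not computed. Whether the list left the floor more or less often than other genes is thus not known.

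The genotype difference changed between days for 5 of the 34 members by limma's moderated F test, against 4.94% of all genes tested. They were Olig2 (adjusted p = 0.000846), a transcription factor of oligodendrocyte and motor neuron progenitors, Ncam1 (adjusted p = 1.89e-05), a cell adhesion molecule, Tubb3 (adjusted p = 0.0024), a neuronal beta-tubulin, Nefl (adjusted p = 0.00271), the light neurofilament chain, and Syp (adjusted p = 8.59e-05), a synaptic vesicle protein. Without the high-Eif2s3y arrays the adjusted p was 0.00157 for Nefl and 0.00455 for Syp, but 0.0524 for Olig2, 0.0562 for Ncam1 and 0.0648 for Tubb3, and Sox1 passed with 0.00941. Of 7 members with another probe set above 100, tested after the values were seen, Nefl did not pass in its other one (adjusted p = 0.0755), Ncam1 did (adjusted p = 0.000169), and Hes6 (adjusted p = 0.0484) and Stmn2 (adjusted p = 0.000722) passed there without passing in the brightest. RefSeq promoter windows on mouse build GRCm38.p6 were found for 27 of the 34 members. The 250 bases before the start are shown for the 3 of these 5 genes that had one, all on the + strand, with any searched motif in capitals: Olig2 at chr16:91225300-91225549, Tubb3 at chr8:123411303-123411552 and Syp at chrX:7638330-7638579.

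Olig2: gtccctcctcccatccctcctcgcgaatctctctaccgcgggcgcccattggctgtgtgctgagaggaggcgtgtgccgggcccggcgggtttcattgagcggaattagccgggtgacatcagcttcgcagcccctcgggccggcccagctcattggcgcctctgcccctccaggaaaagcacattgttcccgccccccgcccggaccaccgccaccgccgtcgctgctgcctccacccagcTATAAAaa

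Tubb3: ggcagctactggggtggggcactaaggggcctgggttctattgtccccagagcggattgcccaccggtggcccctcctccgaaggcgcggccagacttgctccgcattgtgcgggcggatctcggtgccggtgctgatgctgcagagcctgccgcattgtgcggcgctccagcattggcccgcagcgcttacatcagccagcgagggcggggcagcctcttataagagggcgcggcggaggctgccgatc

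Syp: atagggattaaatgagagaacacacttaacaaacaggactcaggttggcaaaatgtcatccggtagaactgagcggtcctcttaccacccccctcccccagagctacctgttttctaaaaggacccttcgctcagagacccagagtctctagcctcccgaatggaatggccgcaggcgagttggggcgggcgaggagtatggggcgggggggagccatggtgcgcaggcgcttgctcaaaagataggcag

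The letters searched, on both strands, were TTCAGCACC and GGACAGCGC, the left and right parts of the REST element, the E-box forms CAGCTG and CATCTG to which proneural factors bind, the RBPJ core TGGGAA of the Notch pathway, and TATAAA. No motif contains another. Members are counted here as genes, whereas the percentages are shares of windows, so they are not strictly alike. The REST parts were found for 0 of 27 members, against 0.3% of all 32851 windows for each. CAGCTG was in 6 members (13.0% of all windows), CATCTG in 4 (14.4%), TGGGAA in 5 (21.6%) and TATAAA in 5 (12.4%). Of the windows shown, that of Olig2 holds TATAAA, which begins at position -8 from the start, and those of Tubb3 and Syp hold none of the 6. A match describes letters in a window only.

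Among progenitor genes, nestin rose in both genotypes by its brightest probe set. Nes, which codes for the intermediate filament of neural and several mesenchymal progenitors, read 70 and 107 in Fl/Fl at day 0, 170 and 186 at day 2, 587 and 555 at day 4, 713 and 909 at day 6, and 954 and 1012 at day 8. In null it read 73, 94 and 69 at day 0, 124, 88, 106, 82 and 68 at day 2, 381, 476, 265, 166 and 213 at day 4, 458, 448, 669, 1005 and 811 at day 6, and 534 and 1357 at day 8. All null arrays lay below both Fl/Fl arrays at days 2 and 4, and the groups overlapped at the other days. The rise from day 0 to day 8 was 10.9-fold in Fl/Fl (log2 3.44, SE 0.45, adjusted p = 3.98e-06) and 10.4-fold in null (log2 3.38, SE 0.41, adjusted p = 1.51e-06) by the brightest probe set, where a fold is 2 raised to the difference of log2(intensity + 4) and understates the change of dim genes. Nes has 2 further probe sets that exceeded 100, and they do not give the same change in null. One rose by day 8 in both genotypes (2.18 in Fl/Fl, adjusted p = 0.000344, and 2.58 in null, adjusted p = 2.06e-05). The other rose in Fl/Fl (1.61, adjusted p = 0.00397) but not past the threshold in null (0.24, adjusted p = 0.768), where it was called at day 6 (1.02, adjusted p = 0.0133). The genotype difference was −1.02 at day 4 (SE 0.38, adjusted p = 0.0895) and −1.21 without the low-Eif2s3y arrays (adjusted p = 0.00886). Averaged over days it was −0.52 (adjusted p = 0.0381), which rose to as much as 0.128 when 1 array was left out was 0.107 without the high-Eif2s3y arrays, and was 0.245 and 0.427 in the other probe sets.

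Olig2 was high in undifferentiated cells and fell late. In Fl/Fl it read 343 and 634 at day 0, 593 and 645 at day 2, 264 and 269 at day 4, 8 and 8 at day 6, and 16 and 9 at day 8. Readings in null were 313, 181 and 237 at day 0, 376, 193, 261, 306 and 288 at day 2, 122, 294, 407, 246 and 370 at day 4, 58, 60, 106, 214 and 223 at day 6, and 8 and 8 at day 8. So the null arrays lay below Fl/Fl at days 0 and 2, overlapped at day 4, were all above at day 6 when both Fl/Fl arrays were under the floor limit, and were back at the floor by day 8. The day 6 difference was 9.72-fold (log2 3.28, SE 0.47, adjusted p = 0.000106), a value that the Fl/Fl floor makes a low estimate. It was 3.87 with the high-Eif2s3y arrays alone (adjusted p = 3.01e-06) and 2.39 without them (adjusted p = 0.0293). The differences at days 0 and 2 were −0.96 (adjusted p = 0.485) and −1.14 (adjusted p = 0.398). Olig1, a related factor of the same cells and the next coding gene to Olig2 in the RefSeq table, read 3 and 4 in Fl/Fl and 281, 135, 190, 349 and 316 in null at day 6, a difference of 5.03 (SE 0.31, adjusted p = 8.14e-10).

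The early factor Sox1, which marks the first neural plate cells, left the floor in null arrays at 1 day only. At day 2 it read 12 and 11 in Fl/Fl and 23, 20, 44, 82 and 72 in null, where the 3 high-Eif2s3y arrays are the last 3. All 5 null arrays were above both Fl/Fl arrays, and the difference was 1.57 (SE 0.33, adjusted p = 0.0294), or 2.96-fold. It was 0.72 without the high-Eif2s3y arrays (adjusted p = 0.0037) and 2.13 with these alone (adjusted p = 5.38e-05). On every other day Sox1 was between 9 and 16 in both genotypes. The adjusted p was above the threshold of 0.05 without Fl/Fl day 2 replicate 1 (0.166), and also without Fl/Fl day 2 replicate 2 or null day 2 replicate 3 or 5. No array reached 100. The dimmer of the 2 Sox1 probe sets read 3 on all arrays, so the day 2 rise was seen in the brightest one only.

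Zic1, a zinc finger factor of dorsal neural tissue, was at 5 or 6 on all 10 Fl/Fl arrays and differed within null. It read 6, 6 and 6 at day 0, 13, 6, 6, 9 and 6 at day 2, 30, 147, 7, 16 and 27 at day 4, 9, 63, 11, 22 and 14 at day 6, and 6 and 127 at day 8. The null arrays were all above Fl/Fl at days 4 and 6, and in each group from day 2 on the low-Eif2s3y array was the highest (13, 147, 63 and 127). Over all arrays no difference passed, with 1.77 at day 4 (SE 0.80, adjusted p = 0.186) and an averaged difference of 1.04 (adjusted p = 0.0524). Without the low-Eif2s3y arrays Zic1 was higher in null at day 4 by 1.21 (adjusted p = 0.0149) and averaged over days by 0.45 (adjusted p = 0.0414). The dimmer probe set of Zic1 ran only from 9 to 15 over all arrays. Fabp7, a fatty acid binding protein of radial glia, read 12 and 55 in Fl/Fl at day 4 and 8 to 9 in null. The difference of −1.31 (adjusted p = 0.0139) rests on Fl/Fl day 4 replicate 2, without which the adjusted p was 0.696. Null arrays read 11, 23, 8, 9 and 26 for Fabp7 at day 6.

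The Notch ligand gene Dll1 and Hes6, which codes for a Hes family protein that favours differentiation, differed within the null arrays. Dll1 read 35 and 47 in Fl/Fl at day 0 and 64, 424 and 428 in null, where the 2 high readings are the high-Eif2s3y arrays. At later days Dll1 was between 8 and 45 in Fl/Fl and between 20 and 126 in null. The day 0 difference was 2.38 (SE 0.69, adjusted p = 0.106), and 3.27 with the high-Eif2s3y arrays alone (adjusted p = 0.00044). Averaged over days Dll1 was higher in null by 0.95 (adjusted p = 0.0253), which became 0.46 (adjusted p = 0.351) without those arrays. The fall of Dll1 from day 0 to day 8 in null (−2.72, adjusted p = 0.00396) was −0.94 (adjusted p = 0.419) without them, where 1 null array is left at day 0. Hes6 peaked at day 2 in both genotypes. It read 211 and 282 in Fl/Fl at day 0, 495 and 588 at day 2 and 168 and 181 at day 4, and in null it read 582, 580, 592, 468 and 408 at day 2. At day 4 the null values were 210, 181, 519, 385 and 472, where the last 3 are the high-Eif2s3y arrays. With all arrays the day 4 difference was 0.88 (adjusted p = 0.1), or 0.97 (SE 0.27, adjusted p = 0.0258) in the other probe set of Hes6, and with the high-Eif2s3y arrays alone it was 1.36 (adjusted p = 6.81e-05). Hes5, the Notch target of progenitors, stayed between 12 and 38 on all arrays, with its highest reading of each genotype at day 0 (27 in Fl/Fl and 38 in null).

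The remaining progenitor genes were dim or flat. Sox21, a Sox factor of later progenitors, ran from 20 to 45 and was lower in null by 0.28 averaged over days (log2 −0.28, SE 0.07, adjusted p = 0.0107), a step of a few intensity units that became −0.11 (adjusted p = 0.211) without the high-Eif2s3y arrays. The dimmer probe set of Sox21 averaged 27 in null at day 0, with a highest reading of 57, and 4 to 7 in the other groups. Pou3f2, a POU factor of neurons and their progenitors, ran from 13 to 25, and its averaged difference of −0.14 (adjusted p = 0.0421) lost its call without any of 20 arrays in turn. Ptn, a secreted growth factor, ran from 15 to 46 with its highest readings in Fl/Fl at day 2 (37 and 46). Pou3f3, a second POU factor, was at 8 or 9 on all arrays.

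**Figure D2:**
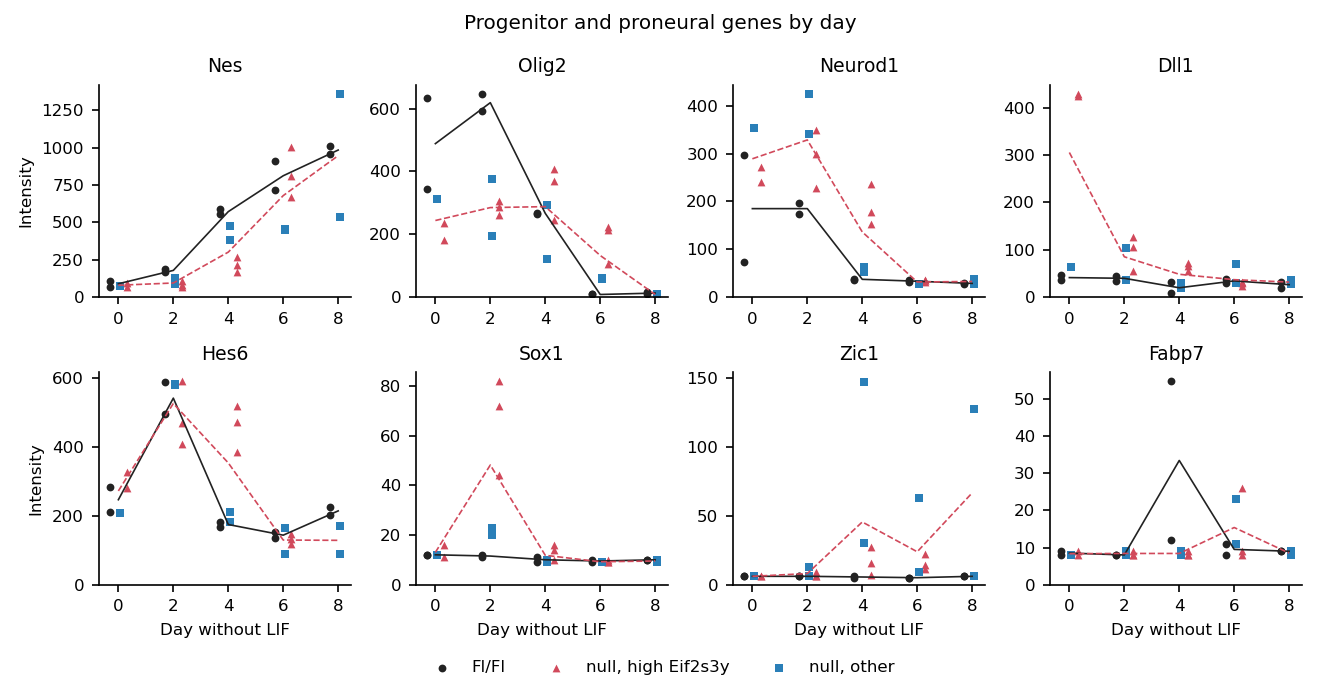
Intensity by day without LIF for 8 progenitor and proneural genes, with a y axis from 0 in each panel. Black circles are Fl/Fl arrays, red triangles null arrays with high Eif2s3y and blue squares the other null arrays, and lines join group means (solid Fl/Fl, dashed null). Olig2 was at 8 in both Fl/Fl arrays at day 6 but 58 to 223 in null, and Sox1 rose to 20 to 82 in null at day 2 alone.

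For Sox11, a Sox factor of committed neural precursors that is also expressed in mesenchyme, the direction depends on the probe set. Of 6 probe sets, the brightest gave 95 and 126 in Fl/Fl at day 0, 250 and 281 at day 2, 413 and 442 at day 4, 1105 and 758 at day 6, and 696 and 595 at day 8. The null arrays read 60, 561 and 493 at day 0, 285, 211, 875, 980 and 912 at day 2, 170, 322, 993, 852 and 1028 at day 4, 274, 349, 1472, 1233 and 1331 at day 6, and 561 and 611 at day 8. In each of days 0 to 6 the high-Eif2s3y arrays were above both Fl/Fl arrays and above the other null arrays, and the averaged difference over all arrays was 0.43 (SE 0.41, adjusted p = 0.512). The other 5 probe sets were lower in null, by −1.34 (adjusted p = 0.000301), −1.37 (adjusted p = 0.000997), −2.05 (adjusted p = 0.00547), −1.18 (adjusted p = 1.32e-05) and −1.08 (adjusted p = 0.00119) averaged over days, adjusted over the 34958 probe sets that name 1 gene. In each of these 5, at days 0 to 6, the high-Eif2s3y arrays were below both Fl/Fl arrays. The one with an averaged difference of −2.05 read 1389 and 1790 in Fl/Fl at day 6 against 59 to 99 in the 3 high-Eif2s3y arrays and 463 and 654 in the other null arrays. All 6 probe sets had higher means at day 6 than at day 0 in Fl/Fl, and for the brightest this rise was 8.10-fold (log2 3.02, SE 1.02, adjusted p = 0.0273, lost without any 1 of the 4 arrays compared, at up to 0.131). Which probe set reads the gene's full transcript level was not tested, so no direction between the genotypes is given for Sox11.

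**Figure D3:**
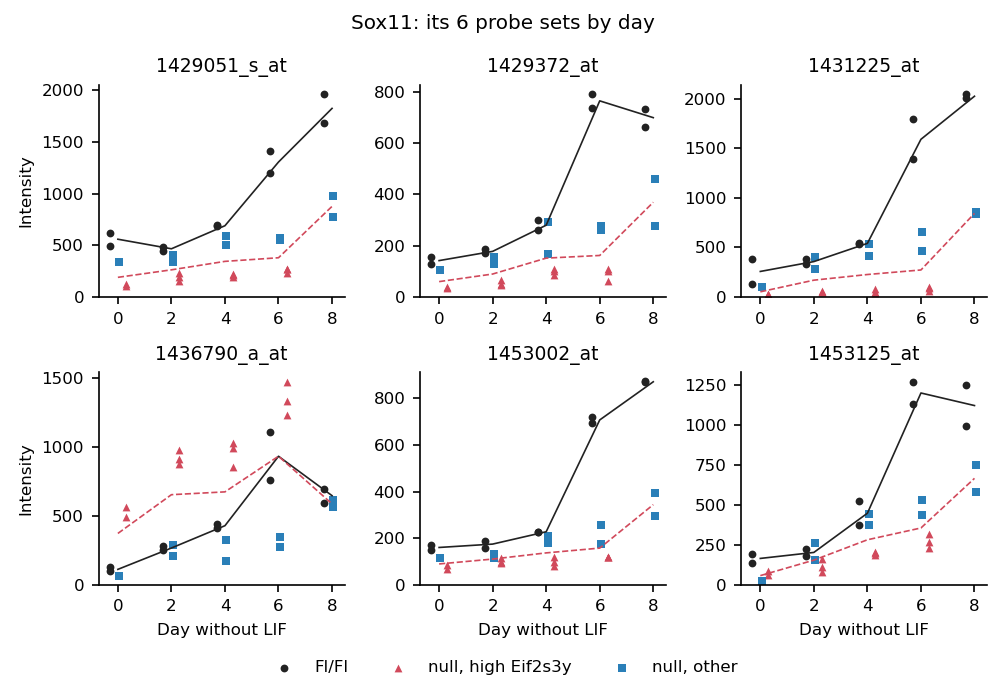
Intensity by day of the 6 probe sets that the platform annotation names Sox11, 1 panel each, with marks as black circles (Fl/Fl), red triangles (null, high Eif2s3y) and blue squares (other null) and lines through group means. The high-Eif2s3y arrays lie above Fl/Fl at days 0 to 6 in the lower left panel, the brightest probe set, and below Fl/Fl at those days in the other 5.

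Of the proneural factors, Neurod1 alone was well above the floor, and it fell in both genotypes. Neurod1 read 73 and 297 in Fl/Fl at day 0, 197 and 173 at day 2, 38 and 36 at day 4, 35 and 31 at day 6, and 28 and 29 at day 8. In null it read 354, 241 and 273 at day 0, 425, 341, 349, 229 and 300 at day 2, 53, 62, 236, 178 and 152 at day 4, 28, 28, 35, 35 and 31 at day 6, and 37 and 28 at day 8. Null lay above Fl/Fl at days 2 and 4 without overlap, and the groups overlapped at days 0, 6 and 8. The fall by day 8 was −2.23 in Fl/Fl (adjusted p = 0.00275, or 0.111 without Fl/Fl day 0 replicate 2) and −3.00 in null (SE 0.50, adjusted p = 6.46e-05). At day 4 Neurod1 was 2.95-fold higher in null (log2 1.56, SE 0.45, adjusted p = 0.0285). That difference was 2.21 with the high-Eif2s3y arrays alone (adjusted p = 0.00101) and 0.58 without them (adjusted p = 0.627), and its call was lost without any 1 of 5 arrays in turn, both Fl/Fl day 4 arrays and null day 4 replicates 3, 4 and 5, with adjusted p up to 0.173. Neurog1 read 7 and 13 in Fl/Fl at day 0 and 6 on all other arrays. Its calls (null day 0 against Fl/Fl −0.45, adjusted p = 0.0121) are steps at the floor. Neurog2 was between 5 and 7.

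Among neuronal genes, the growth-associated protein gene Gap43 and the adhesion gene Ncam1 rose in both genotypes and were lower in null at day 6. Ncam1 read 7 and 9 in Fl/Fl at day 0, 8 and 7 at day 2, 14 and 14 at day 4, 154 and 141 at day 6, and 229 and 212 at day 8. Readings in null were 7, 7 and 9 at day 0, 6, 5, 7, 10 and 10 at day 2, 7, 8, 10, 7 and 8 at day 4, 10, 22, 14, 15 and 14 at day 6, and 55 and 135 at day 8. From day 4 on no null array reached a Fl/Fl array of its day. The day 6 difference was 8.13-fold (log2 −3.02, SE 0.24, adjusted p = 3.32e-08), −3.05 with the high-Eif2s3y arrays alone (adjusted p = 3.44e-09) and −2.99 without them (adjusted p = 0.00508). At day 8 it was −1.31 (SE 0.28, adjusted p = 0.0113), whose call was lost without either Fl/Fl day 8 array or null day 8 replicate 1 (adjusted p up to 0.227). The change from day 0 to day 8 was 18.8-fold in Fl/Fl (adjusted p = 6.19e-10) and 7.79-fold in null (adjusted p = 2.16e-08).

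Gap43, which codes for a growth cone protein, read 105 and 169 in Fl/Fl at day 0, 119 and 188 at day 2, 365 and 445 at day 4, 1197 and 1167 at day 6, and 1328 and 1300 at day 8. The null arrays read 78, 167 and 124 at day 0, 89, 83, 134, 112 and 120 at day 2, 117, 120, 221, 208 and 177 at day 4, 114, 219, 630, 566 and 516 at day 6, and 382 and 1182 at day 8. Null was below Fl/Fl without overlap at days 4, 6 and 8. The day 6 difference was 3.43-fold (log2 −1.78, SE 0.52, adjusted p = 0.0306), −1.05 with the high-Eif2s3y arrays alone (adjusted p = 0.00257) and −2.87 without them (adjusted p = 0.0216). Its call was lost without either Fl/Fl day 6 array or null day 6 replicate 2 (adjusted p up to 0.21). The differences at days 4 and 8 were −1.29 (adjusted p = 0.124) and −0.96 (adjusted p = 0.551).

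The fibroblast and mesenchyme list, kept as a marker list for another cell type, moved the same way in its summed intensity. Its 13 genes summed to 9251 to 10429 in Fl/Fl at day 0, 32176 to 34191 at day 4, 72968 to 76395 at day 6 and 97475 to 99572 at day 8. In null they summed to 4602 to 5858, 7911 to 11308, 31279 to 40348 and 46517 to 98294 on the same days. Of the 13, 4 stayed at or below 100 on all arrays, namely Lum, Thy1, Dcn and Prrx1, which also stayed at or below the floor limit. No reading in the table is 0. The sum weighs bright genes most, such as Vim, Acta2, Tagln and Fn1 (up to 32737, 28510, 22393 and 16986). Its members did not all move together. At day 4 against day 0 in null, Fn1 was lower (−1.17, adjusted p = 0.00115) and Tagln higher (3.03, adjusted p = 3.66e-07). The part of this list in the values of Nes, Gap43, Ncam1 and Sox11 was not tested. Among 11 glial genes 5 stayed at or below the limit on all arrays, and the astrocyte filament gene Gfap read 8 to 13. Rbfox3, which marks mature neurons, read 7 to 9, and Pax6, a factor of radial glia, 5 to 23.

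Of the neurofilament chains, Nefl and Nefm were highest at day 4 and came down again, whereas Nefh, the heavy chain and no member of the list, fell by day 4 in both genotypes (−2.82 in Fl/Fl, adjusted p = 0.000283, and −2.09 in null, adjusted p = 0.000259). Nefl read 390 and 336 in Fl/Fl at day 0, 653 and 699 at day 2, 3619 and 3897 at day 4, 1381 and 1683 at day 6, and 272 and 155 at day 8. In null it read 222, 329 and 329 at day 0, 251, 281, 569, 322 and 300 at day 2, 1411, 1562, 2293, 1842 and 1642 at day 4, 915, 907, 1988, 1588 and 1750 at day 6, and 665 and 974 at day 8. Null arrays were all below Fl/Fl at days 0, 2 and 4, overlapped at day 6 and were all above at day 8. The rise by day 4 was 10.3-fold in Fl/Fl (SE of the log2 change 0.38, adjusted p = 2.59e-06) and 5.91-fold in null (SE 0.28, adjusted p = 1.08e-06). The genotype difference was −1.12 at day 4 (SE 0.32, adjusted p = 0.0252) and 1.95 at day 8 (SE 0.38, adjusted p = 0.00456). The day 4 call was lost without either Fl/Fl day 4 array (adjusted p up to 0.174) and the day 8 call without Fl/Fl day 8 replicate 2 (0.124). The other Nefl probe set gave −1.13 at day 4 (SE 0.52, adjusted p = 0.233) and 2.08 at day 8 (SE 0.62, adjusted p = 0.0903), neither of them called. Nefl also differed between the genotypes in its change from day 0 to day 8, by 2.27 (SE 0.52, adjusted p = 0.0315), which was up to 0.195 without Fl/Fl day 0 replicate 1, Fl/Fl day 8 replicate 2 or null day 0 replicate 1 and 0.0938 in the other probe set (3.08, SE 0.85).

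Nefm, which codes for the medium neurofilament chain and is the next coding gene to Nefl in the RefSeq table, was also highest at day 4. It read 25 and 34 in Fl/Fl at day 0, 139 and 148 at day 2, 257 and 293 at day 4, 137 and 159 at day 6, and 38 and 38 at day 8. Readings in null were 24, 24 and 36 at day 0, 42, 38, 50, 50 and 44 at day 2, 108, 120, 278, 269 and 284 at day 4, 61, 30, 164, 226 and 193 at day 6, and 54 and 36 at day 8. At days 4 and 6 the high-Eif2s3y arrays matched or exceeded at least 1 Fl/Fl array, whereas the other null arrays lay below both. No genotype difference passed over all arrays, with −1.60 at day 2 (SE 0.52, adjusted p = 0.2) and −0.49 at day 4 (adjusted p = 0.731). Without the high-Eif2s3y arrays Nefm was lower in null at day 2 (−1.75, adjusted p = 0.0372), day 4 (−1.24, adjusted p = 0.0327) and day 6 (−1.69, adjusted p = 0.0196). With those arrays alone Nefm was lower at day 2 (−1.51, adjusted p = 9.13e-05) and differed by 0.01 at day 4 and 0.38 at day 6 (adjusted p = 0.12). The rise of Nefm by day 4 was 8.39-fold in Fl/Fl (adjusted p = 0.00143) and 6.29-fold in null (adjusted p = 0.000302).

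Stmn2 and Tubb3 already read over 100 on every array at day 0. Stmn2, a microtubule-destabilizing protein of growing neurites, read 3157 and 2965 in Fl/Fl and 2633, 3018 and 3011 in null at day 0. At day 2 it read 1384 and 1593 in Fl/Fl and between 850 and 1723 in null. In Fl/Fl it then read 2612 and 2944 at day 4, 2677 and 3271 at day 6 and 2592 and 2056 at day 8, while null stayed at 1040 to 1965, 1237 to 1781, and 1286 and 1921. Null was below Fl/Fl without overlap from day 4 to day 8. The difference was −1.01 at day 4 (SE 0.24, adjusted p = 0.00815, lost without either Fl/Fl day 4 array at up to 0.109) and −1.01 at day 6 (SE 0.24, adjusted p = 0.00899, 0.184 without Fl/Fl day 6 replicate 2).

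Tubb3 read 201 and 217 in Fl/Fl at day 0, 203 and 143 at day 2, 94 and 98 at day 4, 116 and 115 at day 6, and 230 and 268 at day 8. The null arrays read 189, 122 and 173 at day 0, 109, 130, 95, 92 and 93 at day 2, 172, 98, 116, 108 and 102 at day 4, 19, 19, 22, 29 and 41 at day 6, and 22 and 74 at day 8. The null arrays were below Fl/Fl on every day except day 4, where they were level with it or above. At day 6 the difference was 4.12-fold (log2 −2.04, SE 0.31, adjusted p = 0.000202) and at day 8 it was 5.60-fold (log2 −2.49, SE 0.37, adjusted p = 0.000311), and neither call was lost when any 1 array was left out. From day 0 to day 8 Tubb3 fell in null (−1.85, adjusted p = 0.000205) and changed by 0.25 in Fl/Fl (adjusted p = 0.724). The difference between these changes was −2.10 (SE 0.51, adjusted p = 0.0457) and lost its call without any of 21 of the 30 arrays in turn (adjusted p up to 0.167).

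**Figure D4:**
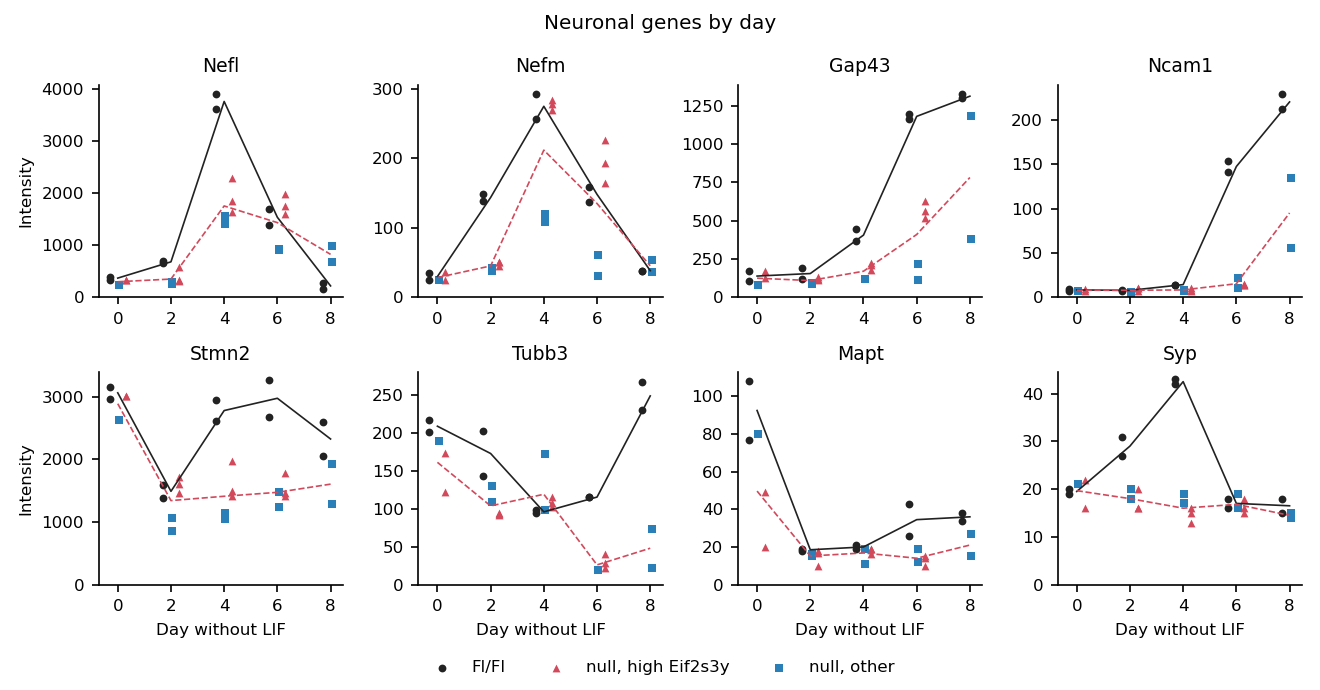
Intensity by day without LIF for 8 neuronal genes, with a y axis from 0 in each panel, marks as black circles (Fl/Fl), red triangles (null, high Eif2s3y) and blue squares (other null), and lines through group means (solid Fl/Fl, dashed null). Ncam1 reached 141 to 154 in Fl/Fl at day 6 and 10 to 22 in null, and Nefl peaked at day 4 in both genotypes.

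The axonal microtubule gene Mapt was highest at day 0, with 77 and 108 in Fl/Fl and 80, 20 and 49 in null. By day 2 it had come down to 18 and 19 in Fl/Fl and 10 to 18 in null, and at day 6 it read 26 and 43 in Fl/Fl and 12, 19, 15, 10 and 14 in null. The day 6 difference of −1.08 (SE 0.32, adjusted p = 0.0372) lost its call without any 1 of 6 arrays in turn, both Fl/Fl day 6 arrays and null day 6 replicates 1, 3, 4 and 5 (adjusted p up to 0.512), and was −0.97 (adjusted p = 0.156) without the high-Eif2s3y arrays. Syp rose in Fl/Fl to 31 and 27 at day 2 and 42 and 43 at day 4, from 20 and 19 at day 0, and was back to 15 to 18 at days 6 and 8. In null Syp stayed between 13 and 22 on all 20 arrays. The day 4 difference was −1.22 (SE 0.11, adjusted p = 4.36e-07, at most 3.29e-05 without 1 array), and that at day 2 was −0.59 (adjusted p = 0.0134, 0.23 without Fl/Fl day 2 replicate 1). Syp is thus a small but tight change in dim readings.

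The other neuronal genes showed no course. Stmn3, a relative of Stmn2, ran from 18 to 60 and Elavl4, a neuronal RNA-binding protein, from 13 to 38. Its relative Elavl3 ran from 5 to 10, Syt1, the calcium sensor of vesicle release, from 6 to 14, Ntrk2, the receptor of brain-derived neurotrophic factor, from 7 to 10, and Dcx, the microtubule protein of migrating neurons, from 5 to 6. Calls among these in the time courses, such as Elavl3 in null at day 8 (−0.33, adjusted p = 0.0258), are steps of at most a few intensity units at the floor.

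The counts over the list are given beside the share of all 18194 genes called in the same direction, and no test compares them. At day 0, 0 of 34 were higher in null (0.247% of all genes) and 1 was lower (0.929%), which was Neurog1. At day 2 Sox1 was higher (0.104%) and Syp lower (0.517%). At day 4 Neurod1 was higher (4.18%) and Fabp7, Stmn2, Nefl and Syp were lower, which is 4 of 34 (7.43%). At day 6 Olig2 was higher (3.47%) and 5 of 34 were lower (6.46%), all of them neuronal genes: Ncam1, Tubb3, Mapt, Gap43 and Stmn2. At day 8 Nefl was higher (0.709%) and Ncam1 and Tubb3 were lower (1.8%). Averaged over days, 2 of 34 were higher (7.76%), Dll1 and Neurod1, and 9 were lower (15.5%), namely Sox21, Nes, Pou3f2, Ncam1, Tubb3, Mapt, Gap43, Stmn2 and Syp. Of those 9, 6 belong to the 18 neuronal genes and 3 to the 13 progenitor genes. The averaged calls of Nes, Dll1, Pou3f2 and Neurod1 were lost without any 1 of 13, 6, 20 and 4 arrays, and that of Neurod1 also in its other probe set (adjusted p = 0.0554). The median difference averaged over days was −0.06 for the neuronal genes, −0.01 for the progenitor genes and 0 for all genes. Null arrays lay wholly below Fl/Fl for 5, 8, 8, 6 and 13 members on days 0, 2, 4, 6 and 8, against 9.9%, 8.4%, 14.3%, 14.7% and 16.8% of all genes, where the last sets 2 arrays against 2. On the same days, in that order, 1, 2, 3, 2 and 1 members lay wholly above, against 5.4%, 4.5%, 10.4%, 10.2% and 8.5% of all genes.

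**Figure D5:**
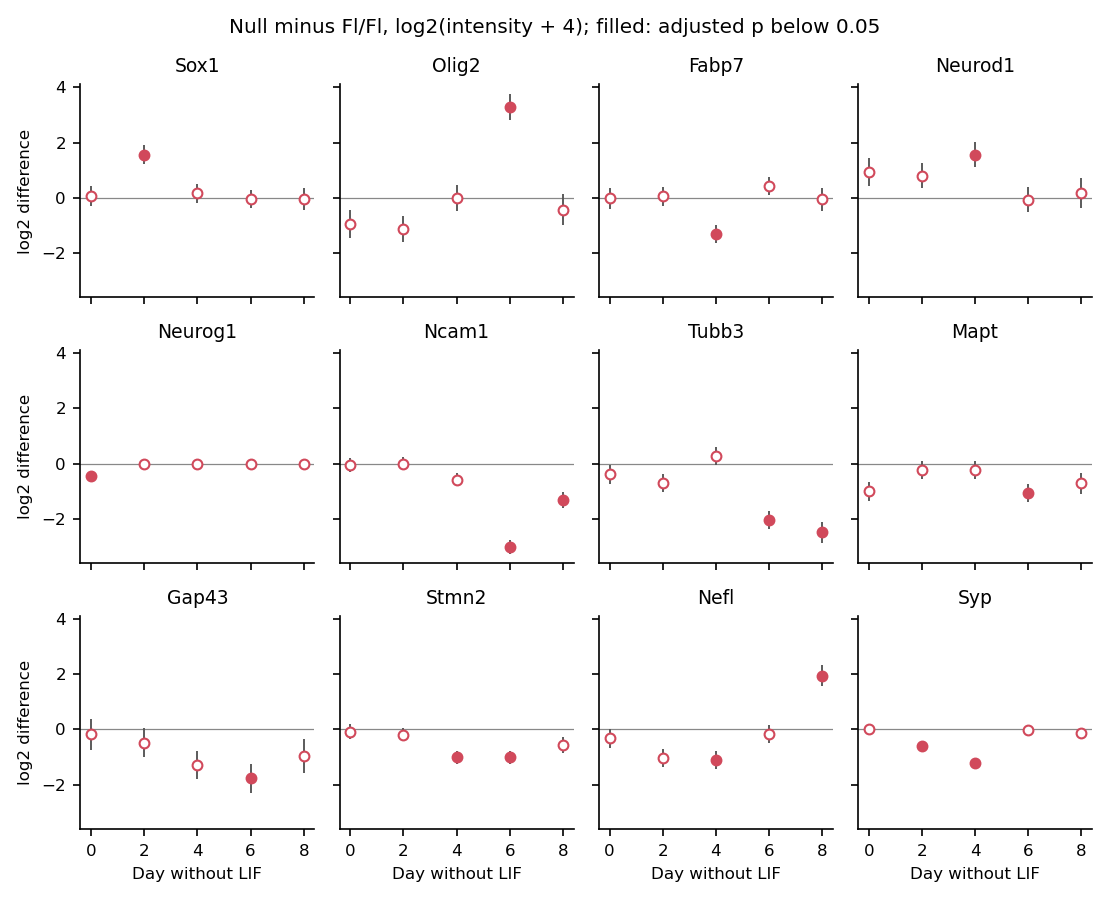
Difference between null and Fl/Fl, as log2(intensity + 4), at each day for the 12 members called at 1 or more days, with error bars of 1 SE from the fit. Filled points have an adjusted p below 0.05, and points below the zero line are lower in null, as Ncam1 is at day 6 (−3.02) and Tubb3 at days 6 and 8.

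Within Fl/Fl, 5 of 34 were higher at day 4 than at day 0 (8.01% of all genes) and 4 lower (10.5%), 6 higher (13.4%) and 9 lower (19.2%) at day 6, and 3 higher (15%) and 4 lower (18.6%) at day 8. Within null, 3 were higher (6.36%) and 4 lower (8.34%) at day 4, 5 higher (12.2%) and 10 lower (18%) at day 6, and 4 higher (14.9%) and 11 lower (18.5%) at day 8. The comparisons within a genotype share its day 0 arrays. At day 8 the genes higher than at day 0 were Nes, Ncam1 and Gap43 in Fl/Fl, and those 3 and Nefl in null. Without null day 8 replicate 2 the null calls of Gap43 (adjusted p = 0.0858) and Nefl (0.0605) were lost. The null changes also cross the array sets, because 2 of the 3 null arrays at day 0 and none at day 8 have high Eif2s3y. For the difference between the day 8 changes, 1 of 34 was higher in null (Nefl, 0.407% of all genes) and 1 lower (Tubb3, 0.687%).

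Other genes of the same pathways moved in both directions. Of 23 other progenitor genes measured, 4 were higher in null at day 4 and 1 lower (4.18% and 7.43% of all genes), with 4 and 1 at day 6 (3.47% and 6.46%). They include Sox2, a factor shared by ES cells and neural progenitors (2.20 at day 4, adjusted p = 3.07e-05), its relative Sox3 (1.95, adjusted p = 0.000174) and Otx2, a factor of epiblast and forebrain (2.84, adjusted p = 0.000563). Of 29 other neuronal genes 2 were higher and 2 lower at day 4, and 2 higher and 4 lower at day 6, against the same shares of all genes. Ina, an intermediate filament gene of neurons, was at 7 in both Fl/Fl arrays at day 6 and at 172, 39, 193, 236 and 271 in null (3.84, SE 0.44, adjusted p = 7.81e-06). Dpysl3, a growth cone protein, went the other way, with 1336 and 1452 in Fl/Fl and 229, 423, 204, 194 and 218 in null (−2.50, SE 0.40, adjusted p = 0.000308), as did Stmn4 (−4.22, adjusted p = 0.000202). Of 18 other Notch pathway genes 1 was higher and 4 were lower at day 4 (4.18% and 7.43% of all genes), among them the receptor gene Notch1 (−1.67, adjusted p = 0.000769) and its target Hes1 (−1.22, adjusted p = 0.0171). Rest, the gene of the repressor, fell from 2513 and 3056 at day 0 to 744 and 660 at day 4 in Fl/Fl (−1.98, SE 0.24, adjusted p = 4.88e-06), and in null it read 1218, 1020, 1422, 1379 and 1470 at day 4, a difference of 0.88 (SE 0.20, adjusted p = 0.0052). Its corepressor gene Rcor1 was lower in null at day 4 (−0.93, adjusted p = 0.0114). The day 4 call of Rcor1 was lost without Fl/Fl day 4 replicate 1, and that of Rest without Fl/Fl day 4 replicate 2. Hes1 lost its call without either of these arrays, while Notch1 kept its call without any 1 array.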

How the data were processed

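Per the labels' protocols, total RNA was extracted with Trizol and biotinylated cRNA was hybridized to Affymetrix arrays. The authors deposited 1 table of 45101 probe sets by 30 arrays, as intensity on a linear scale in whole numbers. No source used here names the summary method, the background correction or the normalization. The platform annotation names 1 gene for 34958 probe sets, several for 932 and none for 9211, and only the first were used. Per gene the probe set with the highest mean of log2(intensity + 4) over all arrays stood for it (18194 genes), with no filter on low values and no further normalization. All 30 arrays entered 1 linear model with a mean for each of the 10 groups and 20 residual degrees of freedom (limma 3.58.1, R 4.3.3), with two-sided moderated tests, an F test of genotype by day, and Benjamini-Hochberg adjustment over all genes at 0.05. The fit was tested on simulated data. The number of arrays limits the precision.

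The members and lists were chosen with earlier results of these data known. All 34 members are named, and of each other list up to 3 called genes per comparison with the smallest adjusted p, beside Rbfox3, Pax6, Gfap, Rest and Prrx1, which were named as markers. Dppa5a, Vim, Acta2, Tagln, Fn1, Lum, Thy1 and Dcn are named to show which genes weigh much or little in a list's sum. Alternatives were a pseudocount of 16, quantile normalization, leaving out the dimmest 40% of genes, the mean of all probe sets, a replicate block, null arrays with or without high Eif2s3y (above 500) and, added after the values were seen, without low Eif2s3y (below 100), other floor limits, and leaving out each array. Other probe sets above 100 were tested after the values were seen. Promoter windows are from RefSeq (GRCm38.p6).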

Additional observations from a re-analysis of the deposited data

Results flagged for a closer look

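By Dixon's criterion 1 array stood apart from the other 4 in 11 of 71 groups of 5 null arrays. Each group tested had a reading above the floor limit. The criterion's usual rate of about 1 in 20 groups cannot be set against this count. Readings are whole numbers, and each group mixes high-Eif2s3y and other null arrays. Replicate 2 of null was the high array for Zic1 at day 4 (147) and day 6 (63). Replicate 1 of null was high at day 2 for Map2 (16) and Elavl4 (17), at day 4 for Tubb3 (172), Elavl4 (26) and Snap25 (17), and at day 6 for Dll1 (70) and Pou3f2 (14). Nefl read 569 in null day 2 replicate 3, and Dclk1 read 13 in null day 6 replicate 4. The readings of Map2, Snap25, Dclk1, Pou3f2 and Elavl4 lie near the floor, so a step of a few units is enough.

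The genotype difference changed with time for 5 members by limma's F test: Olig2 (adjusted p = 0.000846), Ncam1 (1.89e-05), Tubb3 (0.0024), Nefl (0.00271) and Syp (8.59e-05). The change from day 0 to day 8 differed between the genotypes for Tubb3 (adjusted p = 0.0457) and for Nefl (adjusted p = 0.0315). Their values on each array stand in the report.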

How the results depend on the processing

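Values here are the number of the 34 members called, unless a difference is named. The share of all genes called under each alternative is not given here. The counts therefore show how the calls move with the setting and are no result about the list. Leaving out each array in turn gave 1 to 4 calls at day 0, 0 to 2 at day 2, 2 to 8 at day 4, 3 to 6 at day 6, 1 to 3 at day 8 and 7 to 12 for the average over days. Within Fl/Fl it gave 6 to 10 at day 4, 8 to 16 at day 6 and 6 to 8 at day 8, and within null 5 to 11, 11 to 16 and 9 to 16. For the difference between the day 8 changes it gave 0 to 3 and for the F test 5 to 6, and the members that left the floor numbered 1 to 3 in Fl/Fl and 2 to 3 in null. With the high-Eif2s3y null arrays alone the calls were 6 at day 0, 9 at day 2, 14 at day 4, and 15 for Fl/Fl day 4 against day 0, and comparisons that need null day 8 gave no value. Without them the calls were 0 at day 0, where 1 null array is left against 2, and 3 for the F test. Without the 4 null arrays of low Eif2s3y, an alternative added after the values were seen, the calls were 10 at day 4 and 9 for null day 8 against day 0, with 1 null array left at day 8. Leaving out the dimmest 40% of genes gave 0 at day 0, and the mean of all probe sets gave 8 at day 4. The members that left the floor numbered 5 in Fl/Fl and 4 in null at the 99th percentile and also at 100. The labels do not say that replicate numbers pair the samples. In null, replicates 3, 4 and 5 were the high-Eif2s3y arrays at each of days 2, 4 and 6, so numbers followed the array sets there. The deviations of same-numbered arrays correlated between -0.346 and 0.528 (median 0.048), against a median of -0.015 for different numbers. A low median does not show that no arrays were linked across days. With the replicate block 1 member was called for the difference between the day 8 changes in place of 2, and Sox1 at day 2 had an adjusted p of 0.0746.

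The reversals were mostly of Sox11. Its averaged difference was -1.10 with the mean of all probe sets, -0.70 without the high-Eif2s3y arrays, and -1.34, -1.37, -2.05, -1.18 and -1.08 in its other probe sets, and its day 6 difference was 0.55 with the high-Eif2s3y arrays alone. The change of Map2 in Fl/Fl at day 4 was 0.20 with the mean of all probe sets, and that of Stmn2 in Fl/Fl at day 6 was 0.47 in its other probe set. The cause of these was not tested. Readings near 12 limit what can be said of the dim genes, and groups of 2 arrays limit the rest.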

Other observations

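The 2 null arrays of day 8 were far apart for several members. Replicate 1 against replicate 2 read 534 and 1357 for Nes, 382 and 1182 for Gap43, 55 and 135 for Ncam1, 22 and 74 for Tubb3, and 6 and 127 for Zic1. The 2 Fl/Fl arrays of day 8 read 954 and 1012, 1328 and 1300, 229 and 212, 230 and 268, and 6 and 6 for the same genes. Stmn4, a neuronal relative of Stmn2 outside the list, read 5 and 219 in null and 187 and 250 in Fl/Fl at day 8, and Dpysl3 read 541 and 2062 against 2350 and 2499. The fibroblast and mesenchyme list summed to 46517 in one null array of day 8 and to 98294 in the other. Eif2s3y read 365 in replicate 1 and 11 in replicate 2, and its part in these values was not tested.

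In high-Eif2s3y arrays at day 4, Hes6 (385 to 519), Neurod1 (152 to 236), Dll1 (54 to 71) and Nefm (269 to 284) were above the other null arrays (181 and 210, 53 and 62, 20 and 29, and 108 and 120), and Nes was below them (166 to 265 against 381 and 476). The sets were made after the values were seen, and the 2 sets were not tested against each other.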
